A study of Mus musculus with 9 samples.

Results

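Endothelial cells (ECs) were sorted from mouse lungs that carried breast cancer metastases, and their transcripts were compared between mice given DC101, a rat antibody against mouse vascular endothelial growth factor receptor 2 (VEGFR2), and mice given rat IgG. This comparison used 6 of the 9 arrays of the series, 3 for each treatment, chosen by their sample titles, and 18193 genes, namely every gene with a probe set that names it alone. The hosts were female NSG mice, an immunodeficient strain without mature lymphocytes, aged 6 to 8 weeks when they were injected through the tail vein with MDA-LM2, a GFP-expressing subline of the human triple-negative breast cancer line MDA-MB-231 that colonises the lung. Both groups were treated on day 21 and day 24 and their lungs were taken on day 25, and the DC101 dose was 40 mg per kg. Mice with comparable metastatic load by bioluminescence were selected for both groups, so that the arrays compare treatments at a matched load. The ECs came from whole digested lungs, as CD31+ cells negative for CD45, CD11b, EpCAM, CD140a, CD140b and GFP, and therefore mix vessels of the nodules with vessels of the surrounding lung. The other 3 arrays hold ECs from age-matched healthy lungs after rat IgG, and their values are given only as reference levels.

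VEGFR2, encoded by Kdr, is the main signalling receptor for VEGF-A on blood vessels and drives survival, proliferation and sprouting of ECs through ERK, PI3K and calcineurin. DC101 binds the extracellular part of the mouse receptor and blocks its ligands. Sprouting vessels are led by tip cells, which guide the new branch, degrade and rebuild the basement membrane and express a characteristic set of secreted and matrix genes. The basement membrane itself is a sheet of laminin trimers and collagen IV linked by nidogens and heparan sulfate proteoglycans.

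All values below are log2 array intensities or differences between them, DC101 minus IgG, so that a difference of 1 is a 2-fold difference. The markers of the sorted cells were high. Pecam1, which encodes the CD31 used in the sort, was between 14.06 and 14.21 in the 6 arrays, and the 14 pan-endothelial markers had mean levels from 12.7 to 14.2 in the IgG group. Some of these markers still differed between the treatments, as given below. Pairs of IgG arrays correlated at r = 0.988 to 0.989 over all genes and pairs of DC101 arrays at 0.983 to 0.987. The median SD of a gene was 0.139 among the IgG arrays and 0.171 among the DC101 arrays. DC101 replicates 1 and 3 stood apart from the rest: on the first principal component, with 30.3% of the variance, replicate 3 scored 31.5 and replicate 1 scored 11.2, while DC101 replicate 2 scored -11.7 and lay among the IgG arrays at -17.4 to -5.34. The labels call the arrays biological replicates without saying that each is a separate mouse, so the errors measure the spread between these samples.

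No gene passed the test. With limma and Benjamini-Hochberg adjustment over 18193 genes, 0 genes (0%) reached an adjusted p under 0.05, and 0 (0%) met the study's own looser cutoffs of a log2 change over 0.75 in size, unadjusted p under 0.05 and adjusted p under 0.25. The 2 smallest adjusted p-values from limma were 0.403, for the unnamed transcript BC018473, and 0.406, for Adam19, and the next was 0.737. At an unadjusted p under 0.05, limma gave 716 genes lower with DC101, or 3.94%, and 493 higher, or 2.71%, and the fit without variance moderation gave 624 and 467. Separation means here that all 3 DC101 arrays lie beyond all 3 IgG arrays. It held for 1264 genes on the lower side (6.95%) and for 983 on the higher side (5.4%). That is more genes than at an unadjusted p under 0.05, so separation is the looser criterion. With 3 arrays against 3, an exact two-sided permutation test cannot give a p under 0.1. Separation of a single gene is therefore weak evidence. The shares of 6.95% and 5.4% are the background for the counts below. Each gene is represented by its brightest probe set. Of 59 separated genes named here with several probe sets, 20 had a mean over all of them more than 1.5 times smaller or of opposite sign: Aldoa, Aplnr, BC018473, Creb5, Glcci1, Hspg2, Jund, Lcp2, Marco, Mdm2, Meox2, Mycn, Nid1, Npm1, Ptx3, Rfc3, Sc5d, Skp2, Slc31a1 and Sox4. The median 95% interval of a gene was 0.328 wide on each side, so that single-gene differences smaller than this could seldom be told from none. Below, values are given for genes and gene lists as measured, none of them past the adjusted threshold, and a list is described by its count of separated members and by its median beside the median of all genes, -0.02.

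**Figure D1:**
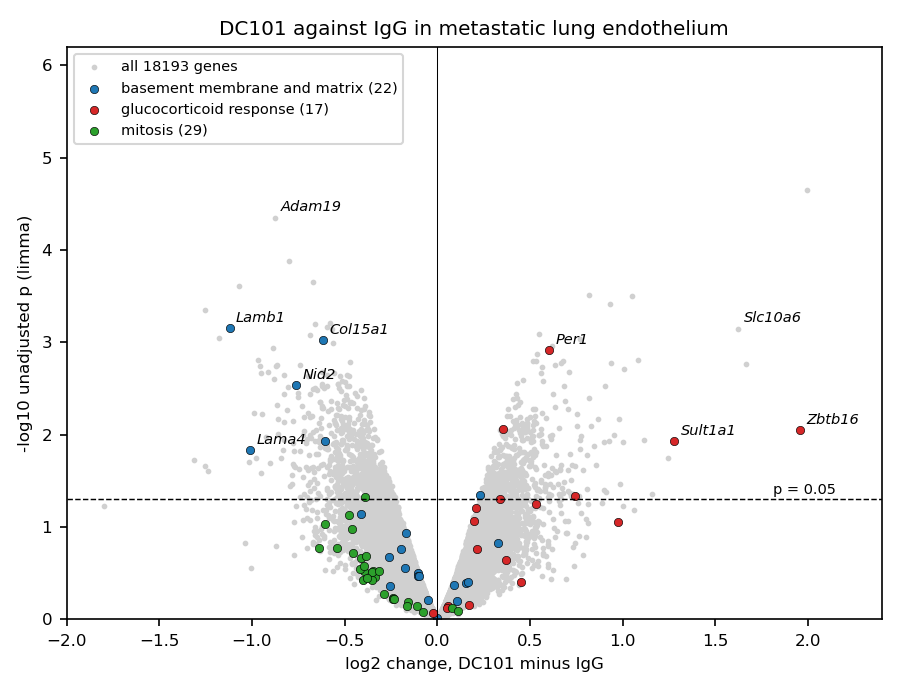
The size of the difference (x axis, log2, DC101 minus IgG) is plotted against the negative log10 of the unadjusted limma p (y axis) for 18193 genes, with 3 gene lists in colour and a dashed line at 0.05. Basement membrane genes such as Lamb1 lie at the upper left, glucocorticoid-response genes such as Zbtb16 on the right, and the mitosis genes left of 0 but mostly under the line.

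The blocked receptor and its relatives differed little. Kdr read 13.71, 13.76 and 13.81 in the IgG arrays and 13.43, 13.62 and 13.92 in the DC101 arrays, a difference of -0.10 with a 95% interval from -0.44 to 0.23. The groups overlapped, and since the antibody acts on the protein, this level does not check the treatment. Flt1, the VEGFR1 gene, differed by -0.11 (95% interval -0.64 to 0.42), Flt4, the VEGFR3 gene, by 0.14 (-0.23 to 0.50) and the co-receptor gene Nrp1 by 0.07 (-0.16 to 0.31). Nrp2, which encodes a co-receptor for VEGF-C, was lower in every DC101 array, at 11.81 to 12.07 against 12.17 to 12.32, and healthy lung had 10.41 to 10.88. Among the ligands, Vegfa differed by 0.00 (95% interval -0.47 to 0.46), and Vegfd was higher in every DC101 array, at 8.46 to 9.30 against 8.18 to 8.28. Of the 10 genes of ligands, receptors and neuropilins, these were the only separated members, 1 lower and 1 higher, and the median was -0.03.

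Feedback inhibitors of ERK signalling, which receptor tyrosine kinases induce, had a median of -0.13 over 10 genes, with 0 separated members by the probe sets used. Dusp6, an ERK phosphatase, was 13.54 to 13.59 in the IgG arrays and 13.56 to 13.58 in the DC101 arrays, a difference of 0.01 with a 95% interval from -0.21 to 0.23. Dusp5, another ERK phosphatase, differed by -0.38 (95% interval -0.72 to -0.04), and Spred1, a Ras pathway inhibitor, by -0.38 (-1.01 to 0.25). Some other Spred1 probe sets were lower in every DC101 array, by -0.66, -0.45 and -0.29. The rest differed by -0.22 to -0.003 with overlapping groups. The calcineurin, NFAT and NR4A list of 9 genes had a median of 0.08 and 1 separated member, Nfatc2, on the higher side.

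The VEGF target genes that the study examined in these samples were Nid2, Mest and Prnd, and Prnd is not analysed here. Nid2, which encodes a nidogen that links laminin to collagen IV, was 8.15, 8.60 and 8.52 in the IgG arrays and 7.75, 7.87 and 7.38 in the DC101 arrays. Every DC101 array was lower than every IgG array and within the range of healthy lung, 7.09 to 8.00, and the difference was -0.76 with a 95% interval from -1.17 to -0.35. That range is below the array medians of 8.32 to 8.33, and no detection floor was set, so the part of background signal in it is not known. Other separated genes named here, such as Hey2 and Cd69, also had means below these medians. Mest, an imprinted hydrolase gene, differed by -0.32 (95% interval -0.76 to 0.13): DC101 replicate 1 stood at 11.44, but replicate 2 at 12.22 was above all IgG arrays.

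Tip cell and sprouting genes were mostly lower with DC101. Of 24 genes, 22 had a difference below 0, the median was -0.24, and 6 (25%) were lower in every DC101 array against 6.95% of all genes, with 0 on the higher side. The 6 were Lamb1, Nid2, Sox4, Adm, Unc5b and Nid1, and 3 of them, Lamb1, Nid2 and Nid1, also belong to the basement membrane list. Sox4, a transcription factor gene of activated endothelium, read 12.18, 12.34 and 12.00 with IgG and 11.34, 11.78 and 11.43 with DC101, a difference of -0.66 (95% interval -1.02 to -0.30). Adm, the gene of the vasodilator peptide adrenomedullin, differed by -0.45 (-0.84 to -0.06), and Unc5b, a netrin receptor gene of tip cells, by -0.41 (-0.70 to -0.12). The classical tip cell gene Esm1, which encodes endocan, did not separate: it read 10.96, 11.52 and 11.61 with IgG and 10.17, 10.97 and 11.20 with DC101, and its difference of -0.58 had an interval from -1.26 to 0.09. Apln, the gene of the tip cell peptide apelin, differed by -0.31 (-0.87 to 0.24), and its 3 DC101 values, 11.30, 11.81 and 12.29, reached the top of the IgG range. Cxcr4, the chemokine receptor gene, was low in DC101 replicate 1 only, at 11.31 against 12.61 and 12.65 in the other DC101 arrays. Without DC101 replicate 1 the median of the list was -0.12.

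Notch genes, which restrain tip cell formation, had a median of 0.01 over 13 genes. Dll4, the Notch ligand of tip cells, differed by -0.22 (95% interval -0.52 to 0.09). Hey2, a Notch target transcription factor gene, was lower in every DC101 array (6.88 to 7.47 against 7.64 to 8.02) and Dll1, another ligand gene, was higher in every DC101 array (12.01 to 12.10 against 11.79 to 11.89), while Hey1, also a Notch target, differed by -0.06 (-0.32 to 0.21).

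Among lists of more than 2 genes, basement membrane and matrix had the highest share of members lower in every DC101 array. The lists were chosen with earlier results of these data known, so this rank is a description only. Of 22 genes, 8 (36.4%) were lower in every DC101 array, against 6.95% of all genes, and 1 was higher. The list median was -0.14. The 22 include 1 gene that a synonym match put in place of the listed one, and it was not separated. When each of the 6 arrays was left out in turn, a choice made after seeing these counts, 8 to 11 of the 22 genes were separated on the lower side and the share over all genes was 11.1% to 17.6%; with fewer arrays these counts cannot fall.

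Lamb1, the laminin beta-1 chain, read 11.91, 12.02 and 11.83 with IgG and 10.32, 11.004 and 11.07 with DC101. The difference was -1.12 (95% interval -1.59 to -0.65), all 4 probe sets of Lamb1 had separated groups, with differences from -1.25 to -0.74, and healthy lung read 9.36 to 9.71. Lama4, the laminin alpha-4 chain of vascular basement membranes, read 11.13, 11.28 and 11.54 with IgG and 9.52, 10.60 and 10.81 with DC101, a difference of -1.01 (-1.75 to -0.26). Its second probe set differed by -0.50 without separation of the groups. DC101 replicate 1 had the lowest value of both laminin genes among the 6 arrays.

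Col15a1, a collagen of vascular basement membranes, was 11.95, 11.83 and 11.88 with IgG and 11.12, 11.43 and 11.25 with DC101, a difference of -0.62 (95% interval -0.89 to -0.34). Vwa1, a matrix protein gene that interacts with perlecan, was 11.24, 11.47 and 11.23 with IgG and 10.38, 11.07 and 10.66 with DC101, a difference of -0.61 (-1.04 to -0.18). In both genes the DC101 arrays lay between the IgG arrays and healthy lung, which had at most 9.85 for Col15a1 and 9.12 for Vwa1. The remaining separated members were small in size: Lamb2 differed by -0.19, Nid1 by -0.17 and Lamc1 by -0.10. Hspg2, the perlecan gene, was the member higher in every DC101 array, at 10.14 to 10.17 against 9.89 to 9.95, but the mean of all its probe sets differed by -0.08, so no direction is given for it.

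The main collagen IV chains, tenascin C and fibronectin overlapped between the treatments. Col4a1, which encodes a chain of the network-forming collagen IV, read 14.36, 14.40 and 14.36 with IgG and 14.36, 14.41 and 14.34 with DC101, a difference of 0.00 with an interval from -0.22 to 0.22, and Col4a2 differed by -0.05 (-0.28 to 0.18). Tnc, the gene of the matrix protein tenascin C, ranged from 8.26 to 9.54 with IgG and from 8.63 to 9.01 with DC101, a difference of -0.26 (-0.99 to 0.48). Fn1, the fibronectin gene, differed by 0.16 (-0.26 to 0.57). Col4a3, which encodes a collagen IV chain of alveolar basement membranes, was not on the list. It was higher in every DC101 array, at 7.88, 7.97 and 7.85 against 6.90, 7.41 and 7.08. The difference was 0.77 (0.43 to 1.11), with healthy lung at 8.34 to 8.91. The mean of Col4a3 over the metastatic arrays, 7.51, was below the array medians, so the part of background signal in it is not known. Lung epithelial markers, described below, had a median difference of 0.46 with 0 separated. The part of epithelial RNA in the Col4a3 values was not tested, so its difference is not assigned to ECs.

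**Figure D2:**
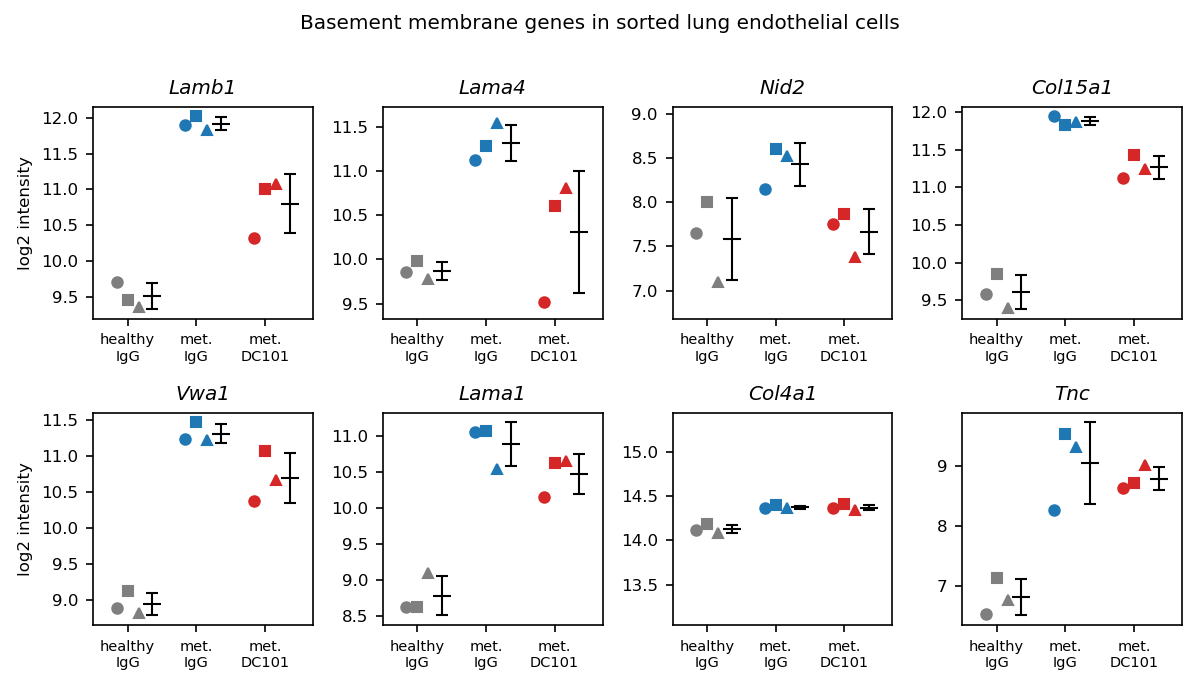
Log2 intensity (y axis) of 8 basement membrane and matrix genes in each array of healthy lung, metastatic lung with IgG and metastatic lung with DC101; circles, squares and triangles are replicates 1, 2 and 3, and black bars are mean and SD (n = 3). Lamb1, Lama4, Nid2, Col15a1 and Vwa1 are lower in all DC101 arrays than in all IgG arrays, whereas Lama1, Col4a1 and Tnc overlap.

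The niche factors that the study followed up, 4 secreted products of metastasis-associated ECs, had 0 separated members. Inhbb, which encodes the activin B subunit, read 12.27, 12.37 and 11.88 with IgG and 12.14, 12.31 and 12.35 with DC101, a difference of 0.09 (95% interval -0.26 to 0.44), against 10.38 to 10.59 in healthy lung. Scgb3a1, a secretoglobin gene, differed by -0.02 (-0.59 to 0.56) and stood at 11.15 to 11.92 in the 6 arrays against 8.75 to 9.72 in healthy lung. Lama1, the laminin alpha-1 chain, read 11.06, 11.07 and 10.54 with IgG and 10.15, 10.62 and 10.65 with DC101, a difference of -0.41 (-0.88 to 0.05). Tnfrsf11b, the osteoprotegerin gene, spread widely, from 10.73 to 11.61 with IgG and over 8.71, 10.25 and 11.58 with DC101, so that its difference of -1.04 had an interval from -2.54 to 0.47. Its second probe set, with a mean of 9.86 over the 6 arrays, differed by -1.28 with separated groups.

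GSP58 is a list of secreted EC products that the study selected for higher levels at week 3 of its metastasis time course, and 53 of its 58 genes were analysed here. Its median was -0.21, 42 of 53 genes had a difference below 0, 7 (13.2%) were lower in every DC101 array and 1, the adhesion receptor gene Adgrg1, was higher by 0.16. The 7 were Lalba, Ptx3, Prrg3, Ccl5, Col15a1, Vwa1 and Capg. Lalba, which encodes alpha-lactalbumin, read 10.07, 10.31 and 9.98 with IgG and 7.80, 9.80 and 8.82 with DC101, a difference of -1.31 (95% interval -2.34 to -0.28). Ccl5, a chemokine gene, differed by -0.68 (-1.15 to -0.21) and Ptx3, the gene of the soluble pattern receptor pentraxin 3, by -0.74 (-1.29 to -0.19). Relative to the healthy mean, the median GSP58 gene stood 1.49 higher in the IgG group and 0.99 higher in the DC101 group. Without IgG replicate 2 the median was -0.08.

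Cell cycle genes were high in both metastatic groups, and the DC101 group read somewhat lower with overlapping arrays. Of 29 mitosis genes, 27 had a difference below 0 and the median was -0.35, but 0 were separated in either direction. Mki67, the proliferation marker gene, read 12.73, 11.85 and 12.03 with IgG and 12.13, 12.25 and 11.04 with DC101, a difference of -0.40 (95% interval -1.22 to 0.43), while healthy lung had 8.01 to 8.68. Birc5, the survivin gene, read 11.29, 10.11 and 10.51 with IgG and 10.51, 10.37 and 9.13 with DC101, a difference of -0.64 (-1.62 to 0.34). In both genes the highest value was IgG replicate 1 and the lowest was DC101 replicate 3. The same arrays set the list: taking the median over the 29 genes of each array's deviation from the gene's mean, IgG replicate 1 was at 0.73, IgG replicates 2 and 3 at -0.21 and 0.04, DC101 replicates 1 and 2 at 0.22 and 0.10, and DC101 replicate 3 at -0.83. Without DC101 replicate 3 the median of the list was -0.03, and without IgG replicate 1 it was -0.10.

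DNA replication genes had the same form. Their median was -0.37 over 27 genes, 25 of them below 0, and 2 genes, Rfc3 and Pold1, were lower in every DC101 array. Rfc3, a subunit of the clamp loader, read 9.49, 9.46 and 9.39 with IgG and 9.06, 9.12 and 9.05 with DC101, a difference of -0.37 (95% interval -0.60 to -0.14). Mcm2, part of the replicative helicase, differed by -0.48 (-1.11 to 0.16) and Cdc6, a licensing factor gene, by -0.69 (-1.49 to 0.12). Without DC101 replicate 3 the median was -0.17, and without IgG replicate 1 it was -0.20. Without DC101 replicate 2, 15 genes (55.6%) were separated on the lower side, against 17.6% of all genes over the same 5 arrays. That DC101 array lay among the IgG arrays on the first principal component, so this share is a description only. Shares without the other DC101 arrays are not given here. Without IgG replicates 1, 2 and 3 in turn the share was 7.41%, 14.8% and 18.5%, against 11.4%, 12.2% and 12.2% of all genes.

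The study's proliferation signature, 130 measured genes that it selected for higher expression at week 3, had 119 differences below 0 and a median of -0.17. On the lower side 12 genes (9.23%) were separated, against 6.95% of all genes, and 1 on the higher side. By the probe sets used, Skp2, which encodes a ubiquitin ligase subunit that degrades p27, differed by -0.46 (95% interval -0.88 to -0.04), and Cdk6, a G1 kinase gene, by -0.36 (-0.71 to 0.00). Another Skp2 probe set differed by 0.49 with separated groups in the opposite direction, so no direction is given for Skp2. Without DC101 replicate 2, 50 genes (38.5%) were separated on the lower side, against 17.6% of all genes over the same 5 arrays. As above, that DC101 array lay among the IgG arrays on the first principal component, and this share is a description only. Shares without the other DC101 arrays are not given here. Without IgG replicates 1, 2 and 3 in turn the share was 10%, 20% and 17.7%, against 11.4%, 12.2% and 12.2% of all genes. The median went to -0.06 without DC101 replicate 3. Among 21 genes of cyclins, CDK inhibitors and E2F factors the median was -0.13, and Cdkn1a, which encodes the CDK inhibitor p21, was higher in every DC101 array by 0.22.

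**Figure D3:**
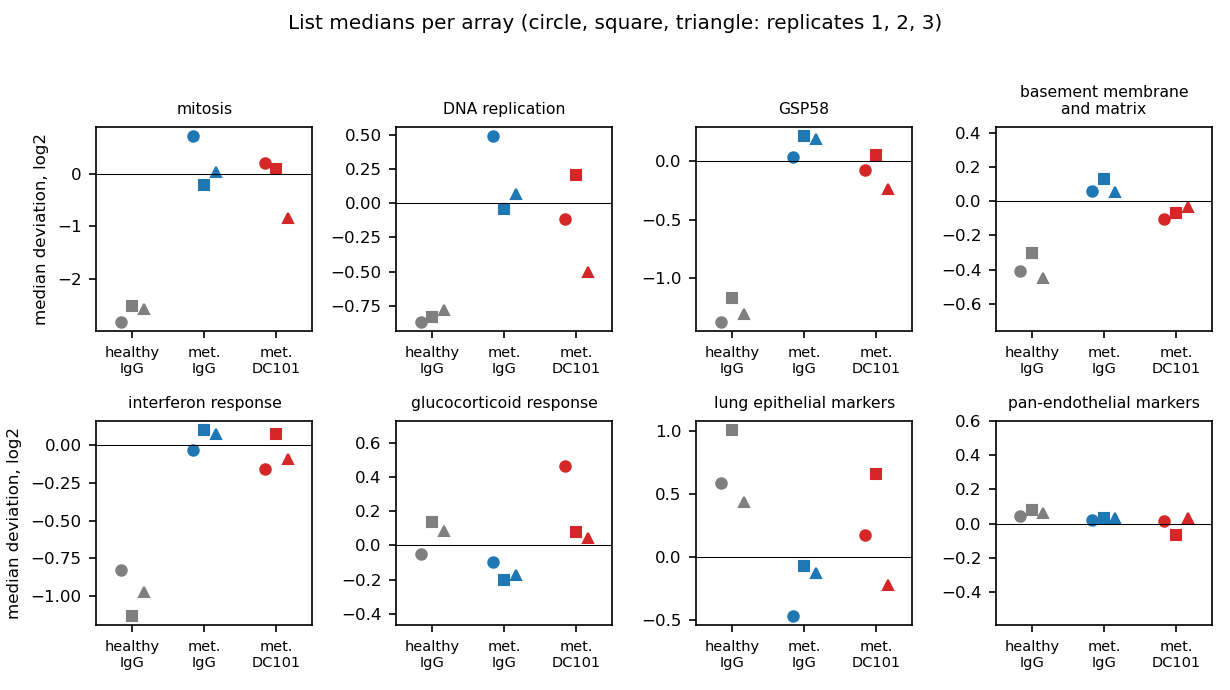
For 8 gene lists, the median over the members of each array's deviation from the gene's mean over the 6 metastatic arrays (y axis, log2) in healthy lung, metastatic lung with IgG and metastatic lung with DC101; circles, squares and triangles are replicates 1, 2 and 3. In mitosis and DNA replication IgG replicate 1 is the highest and DC101 replicate 3 the lowest of the 6 metastatic arrays, while basement membrane and glucocorticoid response do not overlap between the treatments.

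MYC family and ribosome biogenesis genes had a median of -0.15 over 26 genes, with 4 (15.4%) separated on the lower side and 1 on the higher side. Myc, the growth regulator, read 10.57, 10.67 and 10.34 with IgG and 9.79, 10.38 and 10.11 with DC101, a difference of -0.43 (95% interval -0.83 to -0.03), against 8.30 to 8.58 in healthy lung. Mycn, its paralog, was the member on the higher side by the brightest probe set, with 12.12 to 12.37 under DC101 against 11.49 to 11.95 under IgG, yet another Mycn probe set differed by -1.10 with separated groups in the opposite direction, so no direction is given for this gene. The 4 lower members were Rrp12, Nolc1, Ncl and Npm1, nucleolar or ribosome assembly genes, with Rrp12 at -0.60 (-1.04 to -0.16). Other Ncl probe sets were separated on both sides, by -0.40 and 0.23, so no direction is given for Ncl.

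Interferon-response genes stayed far above healthy lung in both groups. Of 27 genes 20 had a difference below 0, the median was -0.13, and 3 (11.1%) were lower in every DC101 array: Oas2, Ifit2 and Gbp3. Oas2, an antiviral RNA sensor gene, read 11.26, 11.41 and 11.39 with IgG and 10.76, 11.07 and 10.58 with DC101, a difference of -0.55 (95% interval -0.89 to -0.21), with 8.70 to 9.35 in healthy lung. Rsad2, the viperin gene, was 12.68 to 13.03 with IgG and 12.51 to 12.80 with DC101, overlapping, against 8.85 to 9.55 in healthy lung. Without DC101 replicate 2, 13 genes (48.1%) were separated on the lower side, against 17.6% of all genes over the same 5 arrays. That DC101 array lay among the IgG arrays on the first principal component, so this share is a description only. Shares without the other DC101 arrays are not given here. The share depended on the array left out. Without IgG replicates 1, 2 and 3 in turn it was 29.6%, 14.8% and 11.1%, against 11.4%, 12.2% and 12.2% of all genes.

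The study's inflammation signature of 66 measured genes had a median of -0.09, with 4 separated genes on the lower side (6.06%, beside 6.95% of all genes) and 1 on the higher side. The lower 4 were Lcp2, Ccl5, Cd69 and Slc31a1, and the higher was Marco. Lcp2, which encodes the immune signalling adaptor SLP-76, had the widest difference of these, with 8.98, 9.47 and 8.89 under IgG and 7.72, 8.35 and 7.74 under DC101, a difference of -1.18 (95% interval -1.70 to -0.66). A second and dimmer probe set of Lcp2 differed by -0.05. In the list of NF-kB and endothelial activation, 21 genes had a median of -0.02, and the adhesion genes Vcam1, Icam1 and Sele differed by -0.18, 0.11 and 0.16 with overlapping groups. MHC class I genes (11, median -0.05) had 1 separated member, the peptide transporter gene Tap2 at -0.20, and MHC class II genes (7, median -0.09) had 0.

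Hypoxia and glycolysis genes were separated more often than genes at large. Of 20 genes, 7 (35%) were lower in every DC101 array and 1 was higher, and the median was -0.14. The 20 include 1 gene that a synonym match put in place of the listed one, and it was not separated. Pfkl, the phosphofructokinase gene, read 11.94, 12.13 and 12.07 with IgG and 11.43, 11.62 and 11.79 with DC101, a difference of -0.44 (95% interval -0.73 to -0.14). The others were Slc2a1, Tpi1, Pkm, Ankrd37, Aldoa and P4ha1. Another Aldoa probe set differed by 0.30 with separated groups on the higher side, so no direction is given for Aldoa. Slc2a1, the glucose transporter GLUT1, differed by -0.34 (-0.66 to -0.02), Tpi1 by -0.32 (-0.63 to 0.00) and Pkm, the pyruvate kinase gene, by -0.26 (-0.49 to -0.03). Ankrd37, a hypoxia-inducible gene, differed by -0.44 (-0.87 to -0.01) and stood at 12.20 in DC101 replicate 1 against 12.86 and 12.82 in the others. Hilpda, also hypoxia-inducible and a lipid droplet protein gene, was the member on the higher side, at 11.78 to 12.05 against 11.50 to 11.72. When each array was left out in turn, 7 to 11 of the 20 were separated on the lower side, and the share over all genes was 11.1% to 17.6%. With fewer arrays these counts cannot fall.

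Glucocorticoid-response genes formed the list with the highest share of separated members on the higher side among the 50 lists. The lists and their members were chosen with earlier results of these data known, so this rank and share are a description only. The glucocorticoid receptor is a hormone-activated transcription factor that binds a palindromic DNA element and induces genes of metabolic and anti-inflammatory control. Of 17 genes, 16 had a difference above 0, the median was 0.36, and 9 (52.9%) were higher in every DC101 array, against 5.4% of all genes.

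Zbtb16, a transcription factor gene strongly induced by glucocorticoids, read 10.07, 8.64 and 8.97 with IgG and 12.37, 10.28 and 10.91 with DC101. The difference was 1.96 (95% interval 0.65 to 3.27), its other probe sets differed by 1.54 and 1.16, and healthy lung at 10.29 to 11.45 lay above all IgG arrays. Sult1a1, a sulfotransferase gene, read 9.90, 10.13 and 10.12 with IgG and 12.22, 10.46 and 11.30 with DC101, a difference of 1.28 (0.38 to 2.18). Tsc22d3, which encodes the anti-inflammatory mediator GILZ, read 10.69, 10.59 and 10.72 with IgG and 12.21, 11.10 and 10.92 with DC101, a difference of 0.75 (0.02 to 1.47). In all 3 genes DC101 replicate 1 was the highest of the 6 arrays.

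Per1, a clock gene that glucocorticoids also induce, was tighter, with 11.46, 11.49 and 11.38 under IgG and 12.21, 11.88 and 12.05 under DC101, a difference of 0.60 (95% interval 0.32 to 0.88). Klf9, a transcription factor gene, read 12.84, 12.81 and 12.85 with IgG and 13.29, 13.17 and 13.12 with DC101, a difference of 0.36 (0.12 to 0.59), and healthy lung had 13.26 to 13.40. The other separated members were Mt2 (0.53), Ddit4 (0.34), Dusp1 (0.21) and Cebpd (0.20). Fkbp5, the gene of a receptor co-chaperone, and Map3k6, a stress kinase gene, were high in DC101 replicate 1 only: Fkbp5 read 12.27 there against 10.46 and 10.11 in the other DC101 arrays and 10.29 to 10.66 with IgG, and Map3k6 read 12.65 against 10.61 and 10.90, with 10.19 to 10.79 under IgG. Mt1 and Sgk1 differed by 0.06 and -0.02.

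By array, the median deviation of the list was 0.47 in DC101 replicate 1, 0.08 and 0.04 in DC101 replicates 2 and 3, and -0.20 to -0.10 in the IgG arrays, so all DC101 arrays stood above all IgG arrays and replicate 1 stood furthest. Without DC101 replicate 1 the median was 0.21 and 9 of 17 genes were separated on the higher side, against 8.62% of all genes over the same 5 arrays. Outside the list, Slc10a6, a steroid sulfate transporter gene, read 9.51, 9.62 and 9.62 with IgG and 11.96, 10.74 and 10.92 with DC101, a difference of 1.62 (95% interval 0.94 to 2.31). Glcci1, named for its induction by glucocorticoids, read 9.28, 9.41 and 9.53 with IgG and 9.91, 9.89 and 10.01 with DC101, a difference of 0.54 (0.28 to 0.79), though its other probe sets differed by 0.05 and -0.14.

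**Figure D4:**
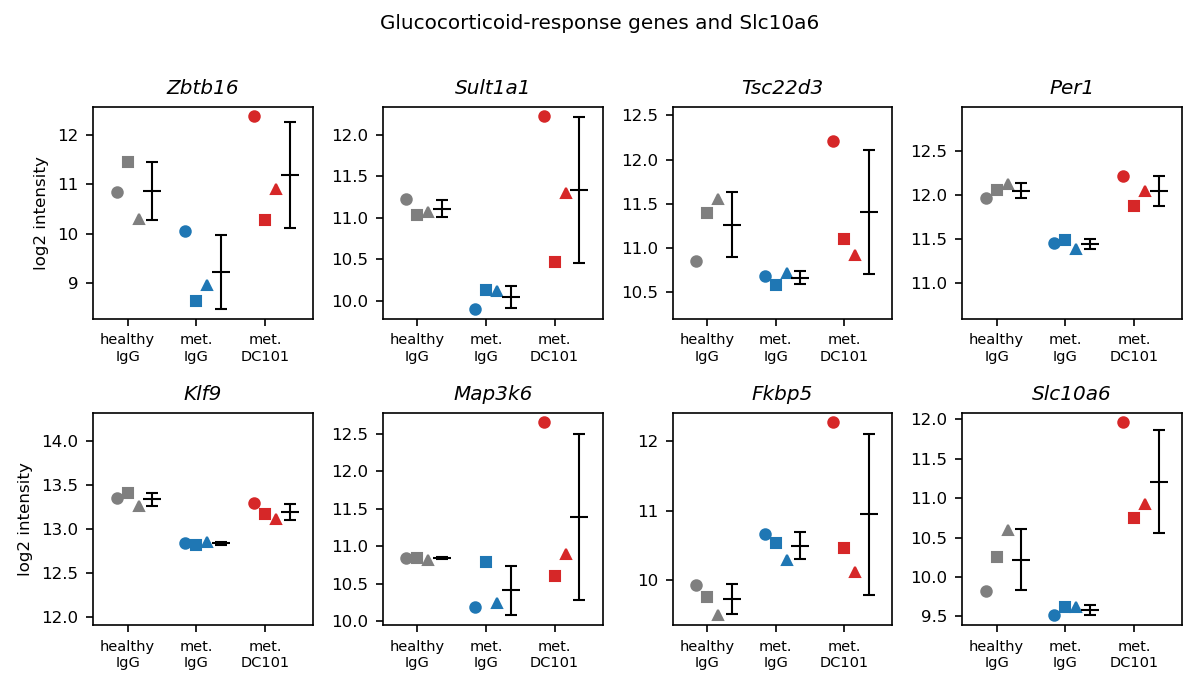
Log2 intensity (y axis) of 7 genes of the glucocorticoid list and of Slc10a6 in each array of healthy lung, metastatic lung with IgG and metastatic lung with DC101; circles, squares and triangles are replicates 1, 2 and 3, and black bars are mean and SD (n = 3). DC101 replicate 1 is the highest of the 6 metastatic arrays in each panel, and Map3k6 and Fkbp5 overlap between the treatments while the other 6 genes do not.

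Promoters were read for these genes because 16 of the 17 list genes differed in one direction and the element bound by the receptor is known. The RefSeq promoter windows (GRCm38.p6, 300 bases around each transcription start) were searched on both strands for the receptor's palindrome, GNACA and TGTNC with 3 bases of any kind between them, and for the E-box CACGTG bound by clock factors. A gene was counted if any of its windows matched. The palindrome was present in 3 of the 14 list genes with a window, Map3k6, Mt1 and Sgk1. It was in 1 of the 13 windowed genes among the 15 leading higher genes, Slc10a6, beside 0.537% of all 27025 genes with a window. It was in 0 of 14 among the leading lower genes and in 0 of 13 basement membrane genes. The E-box was in 4 of the 14 list genes, Dusp1, Fkbp5, Per1 and Sgk1, beside 8.09% of all genes with a window. Of the genes that hold the palindrome, Mt1 and Sgk1 differed by 0.06 and -0.02, and Map3k6 was high in DC101 replicate 1 only. A match is a description of letters and not a bound site. The list was defined by response to glucocorticoids, so the share of its genes with the palindrome says nothing about DC101. Elements outside the windows were not searched. The windows of Slc10a6 (chr5:103629354-103629653, minus strand), Map3k6 (chr4:133240568-133240867, plus strand) and Mt1 (chr8:94178839-94179138, plus strand) are shown with the palindrome in capitals, and that of Per1 (chr11:69098699-69098998, plus strand) with the E-box in capitals.
Slc10a6: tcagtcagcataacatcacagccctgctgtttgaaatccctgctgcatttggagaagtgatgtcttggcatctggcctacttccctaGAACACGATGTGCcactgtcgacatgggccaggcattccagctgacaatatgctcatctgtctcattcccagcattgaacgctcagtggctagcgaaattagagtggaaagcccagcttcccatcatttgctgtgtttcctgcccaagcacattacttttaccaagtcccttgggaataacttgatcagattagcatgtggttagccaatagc
Map3k6: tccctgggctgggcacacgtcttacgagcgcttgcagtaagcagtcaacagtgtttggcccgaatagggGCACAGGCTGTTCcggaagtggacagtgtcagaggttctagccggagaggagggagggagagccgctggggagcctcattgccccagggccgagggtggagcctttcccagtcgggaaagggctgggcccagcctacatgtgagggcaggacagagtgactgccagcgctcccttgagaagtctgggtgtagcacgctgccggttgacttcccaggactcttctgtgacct
Mt1: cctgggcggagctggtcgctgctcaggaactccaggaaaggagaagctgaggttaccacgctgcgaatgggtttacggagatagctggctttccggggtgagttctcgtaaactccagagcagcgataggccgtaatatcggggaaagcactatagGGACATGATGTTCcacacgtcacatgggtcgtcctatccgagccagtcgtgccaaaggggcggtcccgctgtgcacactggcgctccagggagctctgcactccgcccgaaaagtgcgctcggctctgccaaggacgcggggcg
Per1: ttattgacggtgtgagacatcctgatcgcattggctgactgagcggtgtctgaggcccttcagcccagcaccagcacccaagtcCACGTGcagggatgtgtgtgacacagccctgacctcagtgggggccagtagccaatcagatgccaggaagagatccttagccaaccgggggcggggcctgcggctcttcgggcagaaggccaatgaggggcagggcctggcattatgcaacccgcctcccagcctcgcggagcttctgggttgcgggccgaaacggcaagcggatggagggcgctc

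Clock genes had few separated members. Of 16 genes the median was 0.07, and 2 were higher in every DC101 array, Per1 and Npas2, and Bhlhe40 was lower by 0.10 on the log2 scale. Npas2, a paralog of CLOCK, read 8.26, 8.04 and 7.51 with IgG and 8.81, 9.08 and 8.64 with DC101, a difference of 0.91 (95% interval 0.42 to 1.40). The core activator gene Arntl differed by 0.02 (-0.34 to 0.37) and the output gene Dbp by -0.20 (-0.78 to 0.38), both with overlapping groups. Immediate early genes, which respond within minutes to stimuli and to tissue digestion, had a median of 0.14 over 16 genes, and 6 (37.5%) were higher in every DC101 array: Ier2, Klf4, Jun, Dusp1, Egr1 and Jund. Their differences ran from 0.07 for Jund to 0.32 for Klf4, which read 13.07, 12.98 and 13.12 with IgG and 13.46, 13.32 and 13.36 with DC101. Flow-responsive genes, induced in endothelium by laminar flow, had a median of 0.14 over 9 genes, with 4 (44.4%) higher and 1 lower in every DC101 array. The 4 were the transcription factor genes Klf4 and Klf2, Cav1 and Asb2, with Klf2 at 0.25 (-0.04 to 0.54), and the lower one was Nos3, the endothelial nitric oxide synthase gene, at -0.26 (-0.52 to 0.01).

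Metabolic and stress lists showed scattered members. Lpl, lipoprotein lipase, read 12.07, 11.90 and 12.10 with IgG and 13.40, 12.28 and 12.42 with DC101, a difference of 0.68 (95% interval 0.03 to 1.33), while Meox2, which controls endothelial fatty acid uptake, differed by -0.51 (-0.84 to -0.18) and the list of 11 had a median of -0.28. In cholesterol synthesis (12 genes, median -0.10), Dhcr7 was lower in every DC101 array by 0.40 on the log2 scale, while the probe sets of Sc5d, the enzyme before it, differed by 0.53, -0.09 and -0.39, so no direction is given for it. Among p53 targets (14 genes, median 0.11), Eda2r, a death receptor family gene, differed by -0.86 (-1.40 to -0.32), whereas Mdm2, Fas, Trp53inp1 and Cdkn1a were higher in every DC101 array, by 0.45, 0.37, 0.46 and 0.22; Mdm2 read 12.51 in DC101 replicate 3 against 11.58 and 11.45 in the other DC101 arrays, and its other probe sets differed by 0.14 and -0.39 without separation. The ATF4 list (20 genes) had a median of -0.12 and the NRF2 list (10 genes) a median of 0.06, in which Akr1b8, an aldose reductase family gene, read 11.23, 11.04 and 11.61 with IgG and 10.28, 10.71 and 10.63 with DC101.

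Markers of capillary, arterial and venous ECs had list medians near that of all genes. The medians were 0.02 for 14 general capillary markers, 0.08 for 13 aerocyte markers, -0.06 for 13 arterial markers and 0.05 for 12 venous markers. Of the general capillary markers, 3 (21.4%) were higher in every DC101 array and 1 (7.14%) was lower. Arterial markers had 2 (15.4%) on each side and venous markers 1 (8.33%) on each side. Aerocyte markers had 1 (7.69%) higher and 0 lower. Over all genes the shares were 5.4% higher and 6.95% lower. Of the 14 pan-endothelial markers, 4 (28.6%) were lower in every DC101 array, against 6.95% of all genes. These were Emcn, Mmrn2, Robo4 and Cldn5, at -0.33, -0.23, -0.09 and -0.06. Esam was higher in every DC101 array by 0.11, and the list median was -0.01. Cdh5, the VE-cadherin gene, differed by 0.03 (95% interval -0.21 to 0.28). Among the 16 junction genes, Ocln, Esam and Cav1 were higher and Cldn5 and Gja1 lower in every DC101 array. Gja1, the connexin 43 gene, had the widest of these differences, with 12.44, 12.69 and 12.55 under IgG and 11.76, 12.24 and 11.96 under DC101, a difference of -0.57 (-0.92 to -0.23), and healthy lung at 10.28 to 11.03. All 6 of its probe sets differed in the same direction, by -0.77 to -0.32, and 4 of them were separated. Aplnr, the apelin receptor gene, was lower in every DC101 array by 0.33 on the log2 scale. Lymphatic markers had a median of -0.33 over 11 genes with 2 separated, Ptx3 and Thy1, and of -0.11 without DC101 replicate 2; the defining gene Prox1 spread from 8.28 to 10.10 among the DC101 arrays, and Lyve1 differed by 0.19 (-0.09 to 0.47). In sorted bulk samples, fewer cells of a type and less RNA per cell cannot be told apart.

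By the probe sets used, no lung epithelial or mesothelial marker separated the treatments. A second probe set of 1 epithelial marker, at a mean level of 10.33, was higher in every DC101 array by 0.43. Lung epithelial markers had a median of 0.46 over 13 genes with 0 separated; Sftpc, the surfactant protein C gene of alveolar type 2 cells, read 11.29, 12.19 and 11.52 with IgG and 12.47, 13.36 and 11.84 with DC101, beside 12.89 to 13.29 in healthy lung. Epcam, the marker used to remove these cells, read 7.10 to 7.48 in all 6 arrays. The median deviation of the epithelial list was highest in DC101 replicate 2 (0.66) and lowest in IgG replicate 1 (-0.47), and without DC101 replicate 2 the median difference was 0.04. The part of epithelial RNA in any result was not tested. Mesothelial markers (7 genes) had a median of 0.41 with 0 separated members, which was 0.00 without DC101 replicate 3, and fibroblast and mural markers (14) one of 0.16 with 1, Cspg4, a pericyte marker, higher by 0.46. Macrophage and monocyte markers (14) had a median of -0.14, which was 0.10 without DC101 replicate 3, neutrophil markers (9) one of -0.08 and lymphocyte and NK markers (10) one of 0.08, with the pan-leukocyte gene Ptprc at 8.01 to 8.67 in the 6 arrays. Pf4, a platelet chemokine gene, read 8.33, 8.72 and 9.04 with IgG and 8.94, 9.43 and 9.51 with DC101, a difference of 0.60 (95% interval 0.08 to 1.11), with 10.15 to 10.46 in healthy lung. The 3′ to 5′ difference of the Gapdh control probes, a sign of RNA quality, was 0.468 to 0.569 with IgG and 0.354 to 0.598 with DC101.

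The genes with the smallest unadjusted p-values and separated groups lay mostly outside these lists. On the lower side, Adam19, a metalloprotease gene, had the tightest difference: 10.07, 9.93 and 10.10 with IgG against 9.21, 9.15 and 9.12 with DC101, a difference of -0.88 (95% interval -1.12 to -0.63). Its second probe set differed by -0.72 without separation, and healthy lung read 8.74 to 9.34. Lpar4, a lysophosphatidic acid receptor gene, read 8.32, 8.32 and 8.37 with IgG and 7.002, 7.19 and 7.61 with DC101, and all 3 of its probe sets were separated on the lower side. Hdac9, a class IIa histone deacetylase gene, differed by -0.89 (-1.29 to -0.48), and Lrrc3b, a leucine-rich repeat protein gene, by -1.25 (-1.75 to -0.76). Gypc, a membrane skeleton protein gene, differed by -0.57 (-0.81 to -0.33), and Slc25a33, a mitochondrial pyrimidine nucleotide carrier gene, by -0.67 (-0.91 to -0.44). The 15 leading genes on the lower side differed by -1.25 to -0.56.

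On the higher side, St6galnac1, a sialyltransferase gene, read 8.27, 8.39 and 8.82 with IgG and 10.36, 9.33 and 10.78 with DC101, a difference of 1.66 (95% interval 0.85 to 2.48), and its second probe set differed by 1.48 with separated groups. Healthy lung read 7.84 to 9.11, so these DC101 arrays lay above both other groups. Snhg16, a small nucleolar RNA host gene, differed by 1.05 (0.66 to 1.44), and Ica1l, a BAR-domain protein gene, by 1.09 (0.56 to 1.61). Cirbp, which encodes a cold-inducible RNA-binding protein, read 10.91, 10.81 and 10.51 with IgG and 12.08, 11.48 and 11.47 with DC101, a difference of 0.94 (0.48 to 1.39). Ppp1r10, a nuclear phosphatase-targeting subunit gene, differed by 0.93 (0.57 to 1.29) and Prrg4, a vitamin K-dependent membrane protein gene, by 0.82 (0.52 to 1.12). Creb5, a bZIP transcription factor gene, read 10.03, 10.02 and 10.05 with IgG and 10.55, 10.93 and 10.53 with DC101, beside 10.87 to 10.999 in healthy lung. The 15 leading genes on the higher side differed by 0.52 to 1.66.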

How the data were processed

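RNA of sorted lung ECs had been hybridised to 1-colour Affymetrix GeneChip arrays of the mouse genome, 1 per sample. The authors deposited log2 intensities of 45101 probe sets after background correction, quantile normalisation and summary by RMA in Chipster; the base of the logarithm was not stated with the table and was taken as 2 from RMA. Affymetrix control sets (64) and probe sets with several symbols (932) or none (9160) were left out, and of the remaining 34945 the one with the highest mean over the 9 arrays stood for each of 18193 genes. Array medians were 8.32 to 8.33, and 3 arrays a group limit the precision.

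DC101 was compared with IgG by limma 3.58.1 (lmFit and eBayes) in R 4.3.3 on the 6 arrays, two-sided, without covariates, with Benjamini-Hochberg adjustment over 18193 genes and a threshold of 0.05. Intervals are 95%. The script was tested on simulated data. The 50 gene lists are described by counts and medians without a test. Named genes were the 15 leading separated genes with a proper name on each side by unadjusted p, up to 4 members of each list with the widest difference, and receptors, niche factors and markers set by name; 57 of the 151 named genes fell outside this rule and were chosen after their values were seen. Members, lists and tests were chosen with earlier results of these data known. Alternatives were leaving out each array, the replicate number as a block, all 9 arrays in 1 fit, array weights, eBayes with trend and robust, no variance moderation, cyclic loess, genes above the median level, the mean of all probe sets, and no x and s probe sets. List genes without a probe set of their own were matched by former name or synonym, and are otherwise not analysed here. By synonym, Pigq stood for Gpi1 in the hypoxia and glycolysis list, and Loxl3 for Loxl2 in the basement membrane list. These are other genes than the ones listed, and neither was separated.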

Additional observations from a re-analysis of the deposited data

How the results depend on the processing

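No gene reached an adjusted p under 0.05 in limma under any alternative run, and 0 did at 0.1 with the main settings. At the study's cutoffs 2 genes passed with eBayes trend and robust (BC018473 and Rps6ka6, smallest adjusted p 0.0706) and 2 among genes above the median level (BC018473 and Adam19, smallest adjusted p 0.101), against 0 otherwise. At an unadjusted p under 0.05, leaving out 1 array gave 526 to 1260 genes lower with DC101, the highest without DC101 replicate 2, and 367 to 683 higher; genes above the median level gave 404 and 240. The same replicate numbers did not pair the arrays (correlation of deviations 0.07, -0.05 and 0.04), and with the replicate block limma called 0 genes, with 707 lower and 479 higher at an unadjusted p under 0.05.

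Of 2233 alternative values of the 151 named genes, 46 in 23 genes had the opposite sign. With the mean of all probe sets these were Arntl at -0.0335, Cdh5 at -0.00442, Epcam at 0.0113, Hspg2 at -0.0777, Jund at -0.0500, Mycn at -0.331, Nrp1 at -0.0261, Vcam1 at 0.0054 and Vegfa at 0.0107. Without x and s probe sets it was Hspg2 at -0.384. Array weights gave Scgb3a1 at 0.0388 and Sgk1 at 0.0114, and cyclic loess gave Scgb3a1 at 0.0200 and Vegfa at 0.0132. With 1 array left out in turn, the log2 difference spanned 0 in Arntl (-0.0673 to 0.156), Cdh5 (-0.0232 to 0.0739), Col4a1 (-0.0201 to 0.0114), Dusp6 (-0.00268 to 0.0213), Epcam (-0.163 to 0.0259), Fkbp5 (-0.212 to 0.866), Flt1 (-0.375 to 0.095), Flt4 (-0.00926 to 0.284), Fn1 (-0.00258 to 0.33), Inhbb (-0.0547 to 0.187), Kdr (-0.236 to 0.00996), Mt1 (-0.0422 to 0.209), Pecam1 (-0.00179 to 0.0704), Ptprc (-0.28 to 0.0691), Scgb3a1 (-0.215 to 0.215), Sele (-0.232 to 0.402), Sgk1 (-0.0829 to 0.0800), Vcam1 (-0.323 to 0.0117) and Vegfa (-0.241 to 0.118). The cause was not tested; all of these genes but Fkbp5 and Mycn differed by less than 0.25 in size with all arrays. Of 747 alternative list medians, 37 moved by more than the SD between arrays, and 41 in 19 lists had the opposite sign; the main medians of those 19 lists were at most 0.165 in size.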
